A study of Mus musculus with 15 samples.

Results

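The genes described are Lpl, Cd36, Pparg, Mogat1 and Fabp4, a lipase, a transporter, a nuclear receptor, an acyltransferase and a fatty acid carrier of triglyceride handling. They were chosen by name with earlier results of these arrays in view. All comparisons with the first-generation overfed group, and that of second-generation IUGR livers with control, are therefore given for them as a description, without a p-value. The 5 genes are 5 of 18193 genes measured, and they were read from the 11 probe sets annotated to their symbols alone, of 34945 probe sets annotated to 1 symbol. The brightest probe set on average stands for the gene. Lpl has 2 probe sets, Cd36 has 3, Fabp4 has 4, and Pparg and Mogat1 have 1 each. Gene positions are those of RefSeq on GRCm38.p6.

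Lipoprotein lipase, made from Lpl, cuts the triglyceride of circulating lipoproteins into fatty acids, and in adult liver it is normally produced at a low level. Cd36 protein carries fatty acids across the plasma membrane, and Fabp4 binds them inside adipocytes, macrophages and some endothelial cells. Mogat1 joins a fatty acyl group to monoacylglycerol, a step on the way to stored triglyceride. Pparg encodes the nuclear receptor that drives adipocyte fat storage, and in fatty livers of mice Cd36, Mogat1 and Fabp4 are known among the genes that it can switch on.

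Whole livers of adult male mice were measured on Affymetrix Mouse Genome 430 2.0 arrays, 1 pool of RNA per array, 15 pools in 5 groups of 3. The IUGR F1 group had been underfed by 50% before birth, and the ON F1 group had been overfed during suckling. IUGR F2 and ON F2 were male offspring of IUGR and of ON mice, and the control pools held livers of first- and second-generation offspring together. The pool titles read as 3 livers per pool, and strain and age in weeks were not given. Whether pools of a group came from different litters was not stated either, so a p-value speaks only of variation among pools, which may be technical. Pools are named by their label numbers: 4 to 6 are IUGR F1, 7 to 9 ON F1, 10 to 12 IUGR F2, 13 to 15 ON F2 and 1 to 3 control.

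Levels are log2 values, so that a difference of 1 is a doubling of signal, and probe sets of different genes cannot be set against each other. Hepatocyte marker genes had a summed level of 17.11 to 17.17 in all pools, as fits the label liver. Pool 13 of ON F2 carried pancreatic acinar genes (summed level 12.91, against 10.40 to 10.87 in the other 14 pools), and pool 8 of ON F1 carried interferon response genes (11.72, against 9.20 to 10.21). Pool 5 of IUGR F1 stood highest in skeletal muscle genes (8.99, against 7.95 to 8.20), though all 13 had a mean under 5. Dbp, a transcription factor gene with a strong daily rhythm in liver, lay at 5.34 to 6.23 in ON F1 pools, at 6.54 to 10.71 in ON F2 pools and at 5.88 to 10.07 in control pools. In a bulk liver, fewer cells of a type and less RNA per cell cannot be told apart. Unless called unadjusted or from permutation, p-values are from limma, adjusted over the 18193 genes by the Benjamini-Hochberg method, with a threshold of 0.05. A ± after a difference is its standard error.

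Promoter windows of 250 bases before to 50 after the annotated start, from RefSeq on GRCm38.p6, were at hand for 3 of the 5 genes (Cd36, Mogat1 and Pparg). Those of Cd36 and Mogat1 are shown because both genes stood highest in ON F1 pools. Capitals mark AGGTCA, the half-site of the element that PPAR and RXR receptors bind, and CCAAT, a general promoter box, on either strand. The Cd36 window lies on the minus strand at chr5:17835847-17836146 and the Mogat1 window on the plus strand at chr1:78510810-78511109. Since the Cd36 gene spans chr5:17781690-17888959, its window lies inside the gene, at an internal start. No window at the outermost Cd36 start was at hand.
Cd36: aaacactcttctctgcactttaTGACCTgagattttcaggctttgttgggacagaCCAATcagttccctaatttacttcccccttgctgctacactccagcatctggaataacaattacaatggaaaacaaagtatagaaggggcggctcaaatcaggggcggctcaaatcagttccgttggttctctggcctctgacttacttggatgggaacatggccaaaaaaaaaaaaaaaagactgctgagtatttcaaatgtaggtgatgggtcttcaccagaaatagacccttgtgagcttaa
Mogat1: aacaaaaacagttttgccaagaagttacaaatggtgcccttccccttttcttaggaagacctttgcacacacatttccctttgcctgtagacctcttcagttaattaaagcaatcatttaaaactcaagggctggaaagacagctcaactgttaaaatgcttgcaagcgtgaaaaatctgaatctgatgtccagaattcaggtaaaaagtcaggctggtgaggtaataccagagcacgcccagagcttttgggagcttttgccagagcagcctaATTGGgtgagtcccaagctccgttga
The Cd36 window held 1 AGGTCA, read on the opposite strand at bases -228 to -223 from the start, and 1 CCAAT at -195 to -191. In the Mogat1 window no AGGTCA was found, and 1 CCAAT lay on the opposite strand at bases 24 to 28 after the start. Of 32851 mouse promoter windows of the same length, 16.3% held AGGTCA and 37.4% held CCAAT, so either match is common. The whole element AGGTCANAGGTCA, which contains AGGTCA, was found in 0 windows of these 3 genes and in 0.0396% of all windows, on either strand.

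Lpl (chr8:68880555-68906932) stood lower in ON F1 livers than in any other group. Its level was 8.01, 9.00 and 7.92 in the ON F1 pools, against 9.72, 9.50 and 9.55 in the control pools. All 3 ON F1 pools lay below all 12 other pools, and pool 8 lay nearer to them than pools 7 and 9 did. The group means were 8.31 ± 0.60 in ON F1 and 9.59 ± 0.12 in control pools (SD, n = 3 each), a difference of -1.29 ± 0.24, or 2.44-fold lower, the 15th lowest of 18193 genes. Without pool 8 the difference was -1.63, and without pool 9 it was -1.09. This comparison is treated as used in choosing the gene, so the rank follows from the choice and is no support.

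**Figure D1:**
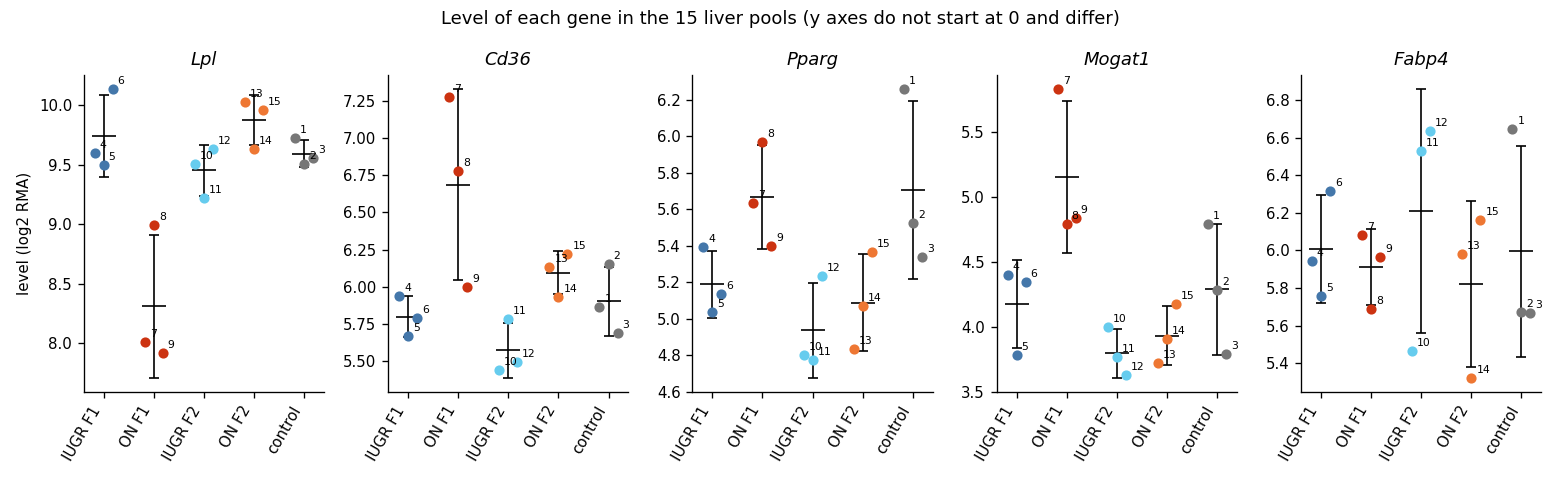
Log2 level of each gene at its brightest probe set (vertical axes, which differ and do not start at 0) in the 15 pools, by group. Points are pools with their numbers, and black bars give the group mean and SD. The ON F1 pools of Lpl, between 7.92 and 9.00, lie below every other pool, and the ON F1 pools of Mogat1, between 4.79 and 5.83, reach above every other group.

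The second-generation overfed lineage did not share the low Lpl level. Lpl was at 10.03, 9.63 and 9.96 in ON F2 pools, which overlap the control pools only at pool 14. ON F2 minus control was 0.28 ± 0.24 (adjusted p = 0.600, 95% interval -0.22 to 0.79), and ON F2 minus ON F1 was 1.57 ± 0.24, or 2.97-fold higher in ON F2. With Dbp as a covariate the last difference was 1.63 ± 0.30, and without pool 13 it was 1.49. The interaction, which is the F2 minus F1 difference of the ON lineage less that of the IUGR lineage, was 1.86 ± 0.33 for Lpl.

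In the IUGR lineage Lpl stayed near control. The IUGR F1 pools had 9.60, 9.50 and 10.14, and the IUGR F2 pools 9.51, 9.22 and 9.64. IUGR F1 minus control was 0.15 ± 0.24 (adjusted p = 0.906, 95% interval -0.36 to 0.65), and IUGR F2 minus control was -0.14 ± 0.24. IUGR F2 minus IUGR F1 was -0.29 ± 0.24 (adjusted p = 0.681), and IUGR F2 minus ON F2 was -0.42 ± 0.24 (adjusted p = 0.591). Ordered by mean, Lpl ran from ON F2 (9.88) through IUGR F1 (9.74), control (9.59) and IUGR F2 (9.45) to ON F1 (8.31), and each step among the first 4 was smaller than 1 standard error.

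A further Lpl probe set, 1431056_a_at, followed the main one, 1415904_at. It read 5.96, 7.03 and 5.92 in ON F1 pools, against 7.85, 7.49 and 7.77 in control pools, a difference of -1.40 ± 0.24. ON F2 minus ON F1 was 1.67 ± 0.24 there. Both probe sets place pool 8 above pools 7 and 9.

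**Figure D2:**
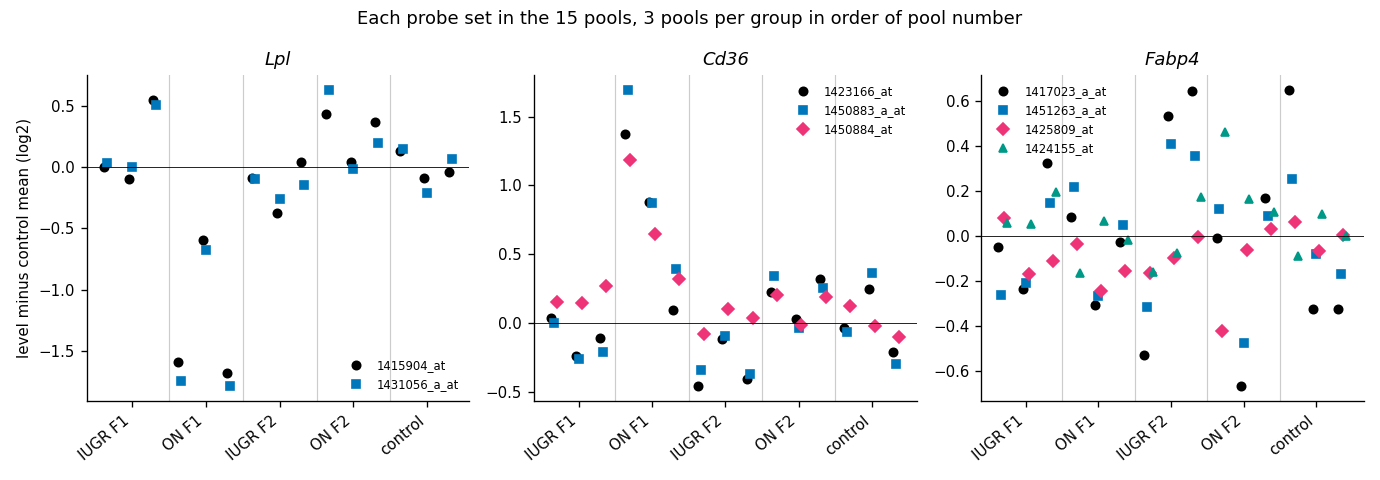
Each probe set of Lpl, Cd36 and Fabp4 as its log2 level minus its own control mean (vertical axes), 3 pools per group in order of pool number, 1 marker shape per probe set. Both Lpl probe sets lie lowest in ON F1, all 3 Cd36 probe sets stand highest at pool 7, and the 4 Fabp4 probe sets scatter without a common group pattern.

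Genes that mature, carry, activate or inhibit lipoprotein lipase, and the other vascular lipases, were read as a list of 20, of which 17 were measured. In ON F1 against control 9 of the 17 were higher and 8 lower, with a median of 0.04, and 0 passed the test. Over all genes the median was 0.02 and 55.0% were higher. The 4 brightest genes of the list are apolipoproteins: Apoc3, an inhibitor of the lipase, differed by 0.06 ± 0.06 in ON F1 against control, Apoc1 by 0.09 ± 0.07, Apoe, a receptor ligand, by 0.07 ± 0.06, and Apoa5, an activator, by 0.18 ± 0.10. In ON F2 against control 6 were higher and 11 lower, in IUGR F2 5 and 12, and in IUGR F1 10 and 7. None of the 17 passed in these comparisons or in F2 against F1 of either lineage.

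Cd36 (chr5:17781690-17888959) stood highest in ON F1 livers, with a wide spread between pools. Its level was 7.28, 6.78 and 6.00 in ON F1 pools, against 5.87, 6.15 and 5.69 in control pools. Pool 9 lay inside the control range, while pools 7 and 8 lay above every pool of the other groups. The means were 6.69 ± 0.64 in ON F1 and 5.90 ± 0.23 in control pools (SD, n = 3 each), a difference of 0.78 ± 0.23, or 1.72-fold, the 32nd highest of 18193 genes. It was 0.49 without pool 7, 0.73 without pool 8 and 1.13 without pool 9. As for Lpl, the rank follows from the choice of the gene and is no support.

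The ON F2 pools had Cd36 at 6.13, 5.93 and 6.22, the IUGR F1 pools at 5.94, 5.67 and 5.79, and the IUGR F2 pools at 5.44, 5.78 and 5.49. ON F2 minus control was 0.19 ± 0.23 (adjusted p = 0.730) and ON F2 minus ON F1 was -0.59 ± 0.23, with -0.30 when pool 7 and -0.93 when pool 9 was left out. IUGR F1 minus control was -0.10 ± 0.23 (adjusted p = 0.935), IUGR F2 minus control was -0.33 ± 0.23, and IUGR F2 minus IUGR F1 was -0.23 ± 0.23 (adjusted p = 0.751). All IUGR F2 pools lay below all ON F2 pools, a difference of -0.52 ± 0.23 that did not pass the test (adjusted p = 0.471, 95% interval -1.01 to -0.03). Of all genes, 8.27% had every IUGR F2 pool below every ON F2 pool. The order of means was ON F1 (6.69), ON F2 (6.09), control (5.90), IUGR F1 (5.80) and IUGR F2 (5.57), and the steps below ON F2 were each within 1 standard error.

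The other Cd36 probe sets kept the ON F1 pools in the same order. Probe set 1450883_a_at read 6.58, 5.76 and 5.28 in ON F1 pools, against 4.82, 5.25 and 4.59 in control pools, so that none of the ON F1 pools lay inside the control range there. Its difference was 0.99 ± 0.25, and that of the dimmest probe set, 1450884_at, was 0.72 ± 0.16. ON F2 minus ON F1 was -0.80 ± 0.25 and -0.59 ± 0.16 at those probe sets.

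Other genes of fatty acid uptake, binding and activation gave a list of 20, of which 18 were measured and 0 passed in any group against control or in F2 against F1. In ON F1 against control 10 were higher and 8 lower (median 0.04), and in ON F2 against control 8 were higher and 10 lower (median -0.04). The brightest were liver-type genes: Fabp1, the main fatty acid binding protein of hepatocytes, differed by 0.04 ± 0.08 in ON F1 against control, Slc27a2 and Slc27a5, fatty acid transport proteins with acyl-CoA synthetase activity, by -0.10 ± 0.08 and 0.03 ± 0.07, and Dbi, an acyl-CoA binding protein, by -0.09 ± 0.11. Fabp5, a fatty acid binding protein of skin, macrophages and other tissues, is named after its values were seen. It was at 9.73 to 11.40 in ON F1 pools, below the control pools at 11.79 to 11.96, a difference of -1.11 ± 0.35 that did not pass (adjusted p = 0.204). Of all genes, 6.23% had every ON F1 pool below the control pools. The ON F2 pools of Fabp5, at 11.02 to 11.63, also lay below control. Its IUGR F1 pools, at 10.65 to 11.89, and IUGR F2 pools, at 11.58 to 11.98, overlapped control. In IUGR F2 against control 6 of the 18 listed genes were higher and 12 lower, with a median of -0.07, where over all genes 46.6% were higher.

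Mogat1 (chr1:78511060-78606964) stood highest in ON F1 livers as well. Its level was 5.83, 4.79 and 4.84 in ON F1 pools, against 4.79, 4.28 and 3.79 in control pools. Pool 7 stood far above the rest, and pools 8 and 9 all but touched control pool 1. The means were 5.15 ± 0.59 in ON F1 and 4.29 ± 0.50 in control pools (SD, n = 3 each), a difference of 0.87 ± 0.28, the 20th highest of 18193 genes. Without pool 7 it was 0.53, without pool 8 it was 1.05, and without control pool 1 it was 1.12. Here too the rank follows from the choice of the gene and is no support. Mogat1 had a mean of 4.27 over all pools, under the level of 5 below which 43.0% of genes lie and where summaries are compressed towards background. The other 4 genes had means above that level.

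Mogat1 was at 3.72, 3.90 and 4.18 in ON F2 pools, all below the ON F1 pools, and ON F2 minus ON F1 was -1.22 ± 0.28. No fold is given for Mogat1, since its ON F2 levels lie near background. It was -0.91 ± 0.32 with Dbp as a covariate, -0.88 without pool 7 and -1.11 without pool 13. ON F2 minus control was -0.36 ± 0.28 (adjusted p = 0.569). The IUGR F1 pools had 4.40, 3.78 and 4.34 and the IUGR F2 pools 4.00, 3.76 and 3.63, both overlapping control. IUGR F1 minus control was -0.11 ± 0.28 (adjusted p = 0.943), IUGR F2 minus control was -0.49 ± 0.28, IUGR F2 minus IUGR F1 was -0.38 ± 0.28 (adjusted p = 0.642), and IUGR F2 minus ON F2 was -0.14 ± 0.28 (adjusted p = 0.904). Below ON F1 the order was control (4.29), IUGR F1 (4.18), ON F2 (3.93) and IUGR F2 (3.80), each step within 1 standard error.

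Enzymes of triglyceride esterification other than Mogat1 gave a list of 18, of which 16 were measured and 0 passed in any group against control or in F2 against F1. In ON F1 against control 10 were higher and 6 lower, with a median of 0.05. Gpam, the mitochondrial acyltransferase that starts glycerolipid synthesis, differed by 0.20 ± 0.22, Dgat2, which makes triglyceride from diacylglycerol, by -0.12 ± 0.09, and the acyltransferases Agpat2 and Agpat3 by 0.09 ± 0.11 and -0.04 ± 0.07. In IUGR F2 against IUGR F1 3 were higher and 13 lower, with a median of -0.16, where over all genes 41.9% were higher and the median was -0.03.

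Pparg (chr6:115360879-115490404) did not follow Cd36 and Mogat1 in ON F1 livers. Its level was 5.63, 5.97 and 5.40 in ON F1 pools, against 6.26, 5.52 and 5.34 in control pools, with overlapping ranges. The means were 5.67 ± 0.29 in ON F1 and 5.71 ± 0.49 in control pools (SD, n = 3 each), a difference of -0.04 ± 0.22. That difference was 0.24 without control pool 1. The ratio of 3′ to 5′ actin signal, which tells of RNA length, was between 1.92 and 2.22 (log2) in ON F1 pools and between 1.76 and 1.94 in control pools, and with it as a covariate the Pparg difference was -0.34 ± 0.21. Its correlation with Pparg was 0.63 over deviations from the group means of 15 pools.

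The remaining groups had their Pparg means below control. Levels were 5.39, 5.03 and 5.14 in IUGR F1 pools, 4.80, 4.77 and 5.24 in IUGR F2 pools, and 4.83, 5.07 and 5.36 in ON F2 pools. The IUGR F2 pools all lay below the control pools, while the highest IUGR F1 and ON F2 pools reached above control pool 3. IUGR F2 minus control was -0.77 ± 0.22. No fold is given, since the IUGR F2 mean of 4.94 lies under 5, where summaries are compressed towards background. IUGR F1 minus control was -0.52 ± 0.22 (adjusted p = 0.540, 95% interval -0.99 to -0.05) and ON F2 minus control was -0.62 ± 0.22 (adjusted p = 0.215, 95% interval -1.08 to -0.15), and neither passed the test. These 3 differences share the control pools and their high pool 1, without which they were -0.49 in IUGR F2, -0.24 in IUGR F1 and -0.34 in ON F2. IUGR F2 minus IUGR F1 was -0.25 ± 0.22 (adjusted p = 0.704), IUGR F2 minus ON F2 was -0.15 ± 0.22 (adjusted p = 0.854), and ON F2 minus ON F1 was -0.58 ± 0.22. By mean the order was control (5.71), ON F1 (5.67), IUGR F1 (5.19), ON F2 (5.09) and IUGR F2 (4.94), with 1 step, between ON F1 and IUGR F1, larger than 1 standard error.

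**Figure D3:**
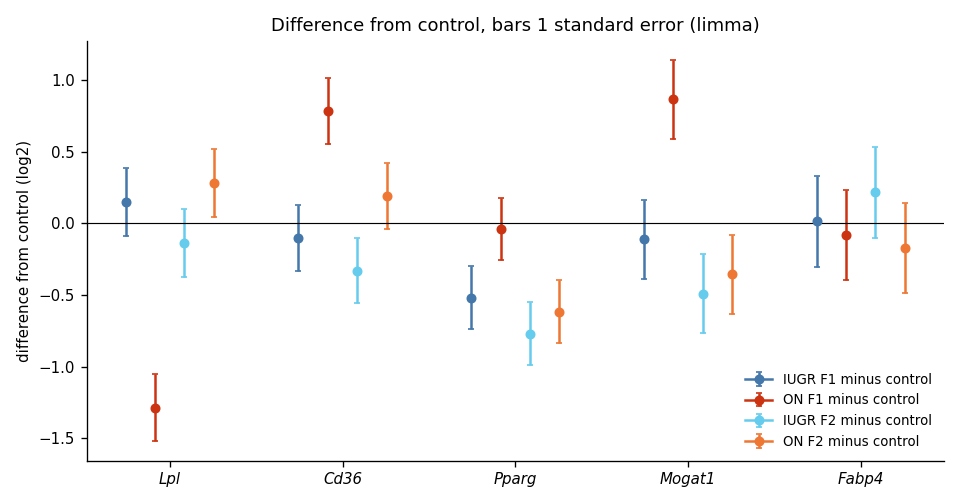
Difference of each group from control in log2 units (vertical axis) for the 5 genes, from limma over all 15 pools. Points are differences of means of 3 pools, and bars are 1 standard error. Lpl lies at -1.29, Cd36 at 0.78 and Mogat1 at 0.87 in ON F1, and Pparg lies below 0 in the other 3 groups.

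Counts over all genes give the background of these differences. In ON F2 against ON F1 1.43% of all genes passed the test (0.484% higher and 0.951% lower), and Lpl and Mogat1 were 2 of the 5 genes among them. The ON F1 pools had served in choosing these genes, so nothing is read from that count. With Dbp as a covariate, without pool 7, or with these groups fitted alone, 0 of the 5 passed there. None of the 5 passed in ON F1 against control, where 0.022% of all genes did, in IUGR F2 against IUGR F1 (0.011%), in IUGR F1 against ON F1 (0.011%), in IUGR F2 against ON F2 (0.0055%) or in the interaction (0.011%). No gene at all passed in IUGR F1, IUGR F2 or ON F2 against control (0%), where limma gave unadjusted p-values under 0.05 for 1534 (8.43%), 1283 (7.05%) and 2755 (15.1%) genes. In ON F1 against control 10.2% of all genes had every ON F1 pool above the control pools, as Mogat1 did, and 6.23% had every pool below, as Lpl did. In IUGR F2 against control 8.12% of all genes had every pool below, as Pparg did. In ON F2 against ON F1 7.41% of all genes had every ON F2 pool above the ON F1 pools, as Lpl did, and 14% had every pool below, as Pparg and Mogat1 did.

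Between the first generations, IUGR F1 minus ON F1 was 1.44 ± 0.24 for Lpl, -0.89 ± 0.23 for Cd36, -0.98 ± 0.28 for Mogat1, -0.48 ± 0.22 for Pparg and 0.10 ± 0.31 for Fabp4. The interaction was -0.84 ± 0.39 for Mogat1, -0.37 ± 0.32 for Cd36, -0.33 ± 0.31 for Pparg and -0.29 ± 0.44 for Fabp4. With Dbp as a covariate it was 1.94 ± 0.43 for Lpl, -0.40 ± 0.45 for Mogat1, -0.23 ± 0.41 for Cd36 and -0.035 ± 0.56 for Fabp4, and for Pparg it changed sign to 0.033 ± 0.36.

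Genes named as PPARG targets in fatty liver and adipocytes were read as a list of 24, of which 20 were measured, 6 of them with a mean under 5. PPAR receptors bind the same element, so counts in this list are no measure of PPARG alone. In ON F1 against control 15 were higher and 5 lower, with a median of 0.08, and 0 passed. The number lower was 11 when pool 7 or control pool 3 was left out, 3 without control pool 1 and 9 with Dbp as a covariate. In ON F2 against control 4 were higher and 16 lower, with a median of -0.23 where all genes had -0.0026, and 0 passed. That median was -0.13 without pool 13 and -0.13 without control pool 1. In IUGR F2 against control 2 were higher and 18 lower (median -0.08), which became 7 and 13 (median -0.03) without control pool 1. In IUGR F1 against control 11 were higher and 9 lower (median 0.03), which turned to 7 and 13 (median -0.05) without control pool 3 and to 8 and 12 (median -0.02) without pool 4. None of the 20 passed in either.

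In ON F2 against ON F1 17 of the 20 listed targets were lower, where 43.4% of all genes were higher. Of the 17, 2 passed the test, where 0.951% of all genes passed as lower. The list was chosen with earlier results of these arrays known, so these p-values are a description only. Plin2, which coats the lipid droplets of hepatocytes, was at 11.57 to 12.06 in ON F2 pools, against 12.32 to 12.35 in ON F1 pools, and fell by 0.57 ± 0.12 (adjusted p = 0.0333). Plin5, a droplet protein of tissues that burn fat, was at 8.71 to 9.38 in ON F2 pools, against 9.46 to 9.78 in ON F1 pools, and fell by 0.64 ± 0.14 (adjusted p = 0.0432). Neither passed with Dbp as a covariate, where Plin2 differed by -0.38 ± 0.12, Plin5 by -0.37 ± 0.13 and 16 of the 20 targets were lower, and where 3 genes in all passed, against 261. Neither passed without pool 7, 8, 13 or 14, but with any 1 pool left out Plin2 differed by -0.71 to -0.47 and Plin5 by -0.84 to -0.51. Control pools had Plin2 at 11.96 to 12.11 and Plin5 at 9.30 to 9.48, between the ON F1 and ON F2 means. Against control, Plin2 differed by 0.30 ± 0.12 in ON F1 (adjusted p = 0.277) and by -0.26 ± 0.12 in ON F2 (adjusted p = 0.298). Among the other bright genes of the list Cideb, a droplet and lipoprotein protein of hepatocytes, differed from control by 0.14 ± 0.08 in ON F1 and -0.12 ± 0.08 in ON F2. Retsat, a retinol saturase, differed by 0.17 ± 0.23 and -0.42 ± 0.23, and Gpd1, a glycerol phosphate dehydrogenase, by -0.13 ± 0.09 and -0.13 ± 0.09.

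**Figure D4:**
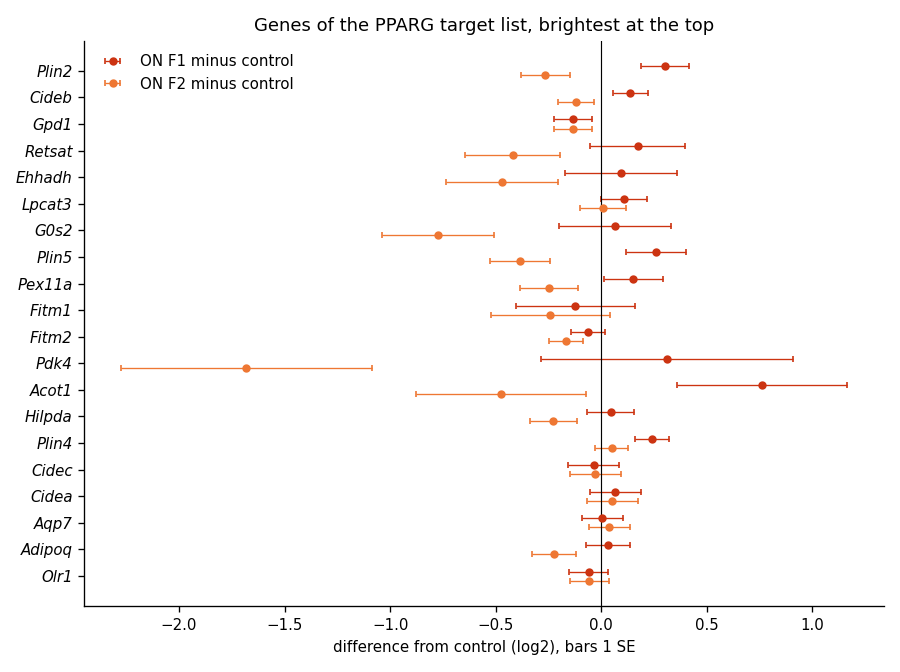
Difference from control in log2 units (horizontal axis) of the 20 measured genes of the PPARG target list in ON F1 and ON F2 livers, with the brightest gene at the top. Points are differences of means of 3 pools, and bars are 1 standard error. In ON F1 15 points lie above 0, and in ON F2 16 lie below 0.

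Partners of PPARG and related nuclear regulators were a list of 24, of which 21 were measured. That list was likewise chosen with earlier results known, so a p-value in it is a description only. Rxrg, a retinoid X receptor and so a dimer partner of PPARG, was at 5.93 to 6.11 in ON F2 pools, against 6.38 to 6.53 in ON F1 pools, and fell by 0.46 ± 0.10 (adjusted p = 0.0407). It did not pass with Dbp as a covariate (-0.31 ± 0.11) or without pool 7, 8, 9, 13 or 14 (-0.50 to -0.43). The other 20 did not pass in ON F2 against ON F1, where 0.951% of all genes passed as lower. The list as a whole had 12 genes higher and 9 lower there, with a median of 0.09, where 43.4% of all genes were higher. None of the 21 passed in any group against control or in IUGR F2 against IUGR F1. Of the 21, 7 were higher and 14 lower in ON F1 against control, with a median of -0.09. Rxra, the main retinoid X receptor of liver, differed by -0.23 ± 0.11, Cebpa and Cebpb, transcription factors that act beside PPARG in adipocytes, by -0.23 ± 0.11 and -0.29 ± 0.19, and Srebf1, a regulator of fatty acid synthesis, by 0.16 ± 0.25.

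Fabp4 (chr3:10204342-10208616) showed no difference between groups beyond its spread. Levels were 5.76 to 6.32 in IUGR F1 pools, 5.69 to 6.08 in ON F1 pools, 5.46 to 6.64 in IUGR F2 pools, 5.32 to 6.16 in ON F2 pools and 5.67 to 6.64 in control pools, and all ranges overlap. IUGR F1 pools averaged 6.01 ± 0.29, ON F1 pools 5.91 ± 0.20, IUGR F2 pools 6.21 ± 0.65, ON F2 pools 5.82 ± 0.44 and control pools 5.99 ± 0.56 (SD, n = 3 each). Each step in their order was smaller than the standard error of 0.31. IUGR F1 minus control was 0.01 (adjusted p = 0.996), ON F2 minus control was -0.17 (adjusted p = 0.833), IUGR F2 minus IUGR F1 was 0.20 (adjusted p = 0.849) and IUGR F2 minus ON F2 was 0.39 (adjusted p = 0.728). ON F1 minus control was -0.08 and IUGR F2 minus control was 0.21. The pools at the top, control pool 1 with 6.64 and IUGR F2 pools 11 and 12 with 6.53 and 6.64, came from groups whose other pools were among the lowest.

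The 3 other Fabp4 probe sets differed from control in ON F1 by -0.00, -0.15 and -0.04. The dimmest of all, 1424155_at, ran opposite to the main one in ON F2, with 0.24 ± 0.11 for ON F2 minus control and -0.27 ± 0.11 for IUGR F2 minus ON F2. Cells that could bring Fabp4 RNA into a liver pool were read from marker lists. Of 12 adipocyte markers 9 were measured and 7 of those had a mean under 5. Adipoq, the defining adipocyte hormone, was at 3.39 to 3.98 in all pools, near background, and the summed adipocyte level was 7.70 to 7.78 in ON F1 and 7.61 to 7.82 in control pools. All 17 Kupffer cell and macrophage markers were measured, 3 of them under 5. IUGR F1 pools summed to 12.03 to 12.16, ON F1 pools to 12.27 to 12.54, IUGR F2 pools to 12.04 to 12.46, ON F2 pools to 12.40 to 12.70 and control pools to 12.06 to 12.58. Gene by gene, 16 of the 17 were lower in IUGR F1 against control (median -0.50), 11 were lower in ON F1 (median -0.12), 14 were lower in IUGR F2 (median -0.22) and 14 were higher in ON F2 (median 0.21), with 0 passing. In ON F2 against ON F1 15 of the 17 were higher (median 0.26). Of these Fcna, a ficolin of macrophages named after its values were seen, rose by 0.88 ± 0.15 (adjusted p = 0.0193), but did not pass with Dbp as a covariate or without pool 7 or 13. The 16 endothelial markers, 3 of them under 5, summed to 11.02 to 11.18 in ON F1 and 10.93 to 11.11 in control pools. Of these 12 were higher in ON F1 against control (median 0.09) and 13 in IUGR F1 (median 0.08). In IUGR F2, 13 were lower than in control (median -0.15), 15 than in IUGR F1 (median -0.24) and 16 than in ON F2 (median -0.13). In IUGR F2 against ON F2 16 of the 17 Kupffer cell and macrophage markers were lower too (median -0.35). Over all genes 46.7% were higher there and 41.9% in IUGR F2 against IUGR F1, and 0 markers of either list passed. Pool 11 of IUGR F2 stood apart from pools 10 and 12. Its endothelial sum was 11.12, against 10.70 and 10.88. The median endothelial deviation from the control means was 0.07 in pool 11, against -0.25 and -0.24. For Kupffer cell and macrophage markers that median was 0.14, against -0.46 and -0.34. The part of these cells in the levels of Lpl, Cd36, Mogat1 and Fabp4 was not tested.

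Over the 15 pools Cd36 and Mogat1 ran together (Pearson r = 0.78, Spearman rho = 0.60), and Lpl ran against Mogat1 (r = -0.68, rho = -0.38) and against Cd36 (r = -0.53, rho = -0.19). These values rest on the ON F1 pools that chose the genes. Over the other 12 pools r was 0.33 for Cd36 and Mogat1, 0.26 for Lpl and Mogat1, and 0.40 for Lpl and Cd36. Without the 2 pools farthest from the median of the first gene (7 and 8 for Cd36, 7 and 9 for Lpl), the values over 13 pools were 0.37, -0.13 and -0.23. Pparg and Mogat1 had r = 0.66 and rho = 0.78 over 15 pools, 0.67 without pools 1 and 8, and 0.77 over the 12 pools outside ON F1.

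Deviations from the group means remove what the groups share. There r was 0.57 for Cd36 and Mogat1 (exact within-group permutation p = 0.216, two-sided), 0.45 for Pparg and Mogat1 (exact p = 0.234), 0.46 for Lpl and Pparg (exact p = 0.0840) and -0.10 for Lpl and Mogat1 (exact p = 0.896). None of the 10 pairs passed after Benjamini-Hochberg adjustment over the 10, with a smallest adjusted p of 0.470.

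**Figure D5:**
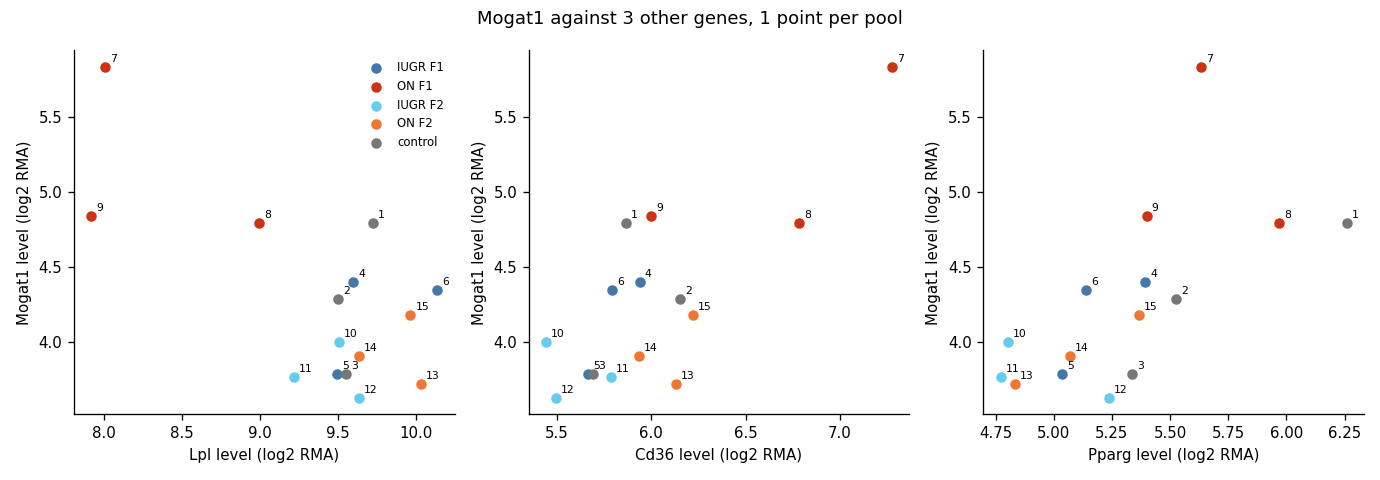
Log2 level of Mogat1 (vertical axes) against Lpl, Cd36 and Pparg (horizontal axes), 1 point per pool with its number, coloured by group. The 3 ON F1 pools stand apart at the low end of Lpl, and with them left out r is 0.26 for Lpl, 0.33 for Cd36 and 0.77 for Pparg.

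The genes whose levels were most like each member were sought by Pearson r over the 15 pools among 1663 genes with a mean of at least 6 and an SD of at least 0.2. They share the arrays and the group differences with the member, so r is a description. For Lpl these were Golga7 (0.83), Camk2b (0.81), Hc, which encodes complement C5 (0.79), H2bc21 (0.75) and Rnf145 (0.74). Without pools 7 and 9 they had -0.17, 0.61, 0.50, 0.56 and 0.39. For Mogat1 they were Ebpl (0.93), Acot2, a mitochondrial acyl-CoA thioesterase (0.92), and Maob, a monoamine oxidase (0.90), which kept 0.85, 0.89 and 0.83 without the 2 farthest pools. Cd36 was most like Pkhd1 (0.82), Tusc3 (0.82) and Lrrc28 (0.81), which had 0.49, 0.46 and 0.36 without its 2 farthest pools. Pparg was most like Nfe2l2, the NRF2 transcription factor (0.86), Zfp385a (0.85) and Tkfc, a triokinase (0.85). Fabp4 was most like Irf2bp2 (0.74), Cyp8b1, a sterol hydroxylase of bile acid synthesis (0.72), and Elovl3, a fatty acid elongase (0.70).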

How the data were processed

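Liver RNA of 15 pools was extracted with Trizol, labelled with biotin and hybridised to 1-colour arrays, per the labels' protocols. What the authors deposited is 1 log2 level for each probe set and pool, computed with RMA according to the submitters' processing notes. This method subtracts background, makes the arrays' distributions equal and summarises probes, so shifts shared by most genes are removed and dim probe sets are compressed. Array medians were 4.60 to 4.68. The number of arrays limits the precision, and differences from control had a median standard error of 0.104.

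Of 45101 probe sets 64 controls were left out, 34945 had 1 symbol in the platform annotation, 932 several and 9160 none. By Entrez number, 34741 were found in RefSeq's genes of GRCm38.p6. Each of 18193 genes was read at its brightest probe set. Groups came from titles and treatment labels. limma 3.58.1 in R 4.3.3 was fitted to 5 group means over all 15 arrays, with empirical Bayes moderation, two-sided p-values and adjustment over all genes by the Benjamini-Hochberg method. Exact within-group permutation of pools tested the pairs of members. The scripts were tested on simulated data.

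The members and the lists (5 pathway lists with 92 of 106 entries measured, 9 marker lists with 118 of 127) were chosen with earlier results of these data known. Named genes are the 5 members, the genes most like them, pathway list genes that passed against control or in F2 against F1, and the 4 brightest genes of each pathway list. Fabp5 and Fcna were named outside this rule. Alternatives were left-out pools, dim genes left out, other probe sets, centring, cyclic loess, array weights, covariates for Dbp or the actin ratio, and fits of the compared groups alone.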

Additional observations from a re-analysis of the deposited data

Results flagged for a closer look

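At its brightest probe set, Cd36 lay on opposite sides of control in second-generation livers of the IUGR and ON lineages. Each IUGR F2 pool (5.44, 5.78 and 5.49) lay below the control mean of 5.90, and each ON F2 pool (6.13, 5.93 and 6.22) lay above it. IUGR F2 minus control less ON F2 minus control was -0.52 on the log2 scale, which is the same as IUGR F2 minus ON F2, and limma gave it an adjusted p of 0.471. The other probe sets did not all share this. At 1450883_a_at IUGR F2 minus control was -0.27 and ON F2 minus control 0.19, but ON F2 pool 14 (4.85) lay below the control mean of 4.89. Every ON F2 pool lay inside the control range of 4.59 to 5.25 there. At the dim 1450884_at the differences were 0.017 and 0.13, of the same sign. At the brightest probe set the control pools themselves ran from 5.69 to 6.15, and ON F2 pools 13 and 14 and IUGR F2 pool 11 lay inside that range. Groups of 3 pools were too small for a search for single outlying pools.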

How the results depend on the processing

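With 3 pools per group the differences from control move with single pools. Of the differences tested, Fabp4 in IUGR F1 against control changed sign to -0.017 with the mean of all probe sets and to -0.013 with median centring. Leaving out 1 pool gave ranges for IUGR F1 against control of -0.047 to 0.27 for Lpl, -0.21 to 0.021 for Cd36, -0.36 to 0.14 for Mogat1 and -0.15 to 0.34 for Fabp4. Fabp4 ranged from -0.34 to 0.15 in ON F2 against control and from -0.012 to 0.58 in IUGR F2 against IUGR F1. Of the 5 genes, 2 passed in ON F2 against ON F1. With dim genes left out, which removed Mogat1 before the test, 1 of the remaining 4 passed. With cyclic loess, array weights or all probe sets tested one by one 1 passed, and with Dbp as a covariate or the compared groups alone 0 passed. Leaving out 1 pool gave 0 (without ON F1 pool 7) to 3 (without pool 9), and 0 to 1 in ON F1 against control, in IUGR F1 against ON F1 and in the interaction. The 1 in ON F1 against control came without pool 8 or without pool 9. The ON F1 pools chose the genes, so these counts support nothing about them. Over all genes, ON F2 against ON F1 had 261 calls, from 3 with Dbp as a covariate to 365 with dim genes left out. The ranges were 0 to 21 in ON F1 against control, 0 to 15 in IUGR F2 against IUGR F1 and 0 to 11 in IUGR F2 against ON F2. In a permutation test over all 15 pools, whose ON F1 pools chose the genes, 3 of 10 pairs passed, against 0 without the 2 farthest pools and 0 over deviations from group means. Over those deviations r turned to 0.12 for Lpl and Cd36, 0.46 for Lpl and Pparg and 0.19 for Cd36 and Fabp4. The cause of these changes was not tested. No paired analysis was possible because the pools are numbered 1 to 15 and the groups share no replicate number. The fits with the Dbp covariate for lists and the correlation without ON F1 pools were chosen after seeing the data.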
